A study of Homo sapiens with 3 samples.

Results

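The genes described here build and release secretory granules and synaptic vesicles. They were picked by symbol: the synaptotagmins, VAMP proteins, syntaxins and their binding proteins, SNAP proteins, RAB3 proteins, synapsins, SV2 proteins, complexins and granins, together with 14 single genes such as CPE, PAM, SYP and UNC13A. Of 17448 genes in the deposited table, 82 were members. Each had an estimated read count and a length-scaled expression value (FPKM, fragments per kilobase scaled to library size) in 3 RNA-seq libraries of H128, an established human small cell lung cancer (SCLC) line with neuroendocrine origin. One library came from cells transfected with control siRNA (siCont), which the study's methods call vehicle. The libraries labelled siERRG2 and siERRG3 came from cells transfected with siRNA against ESRRG, which encodes the orphan nuclear receptor ERRγ. The labels do not settle which of the study's ESRRG siRNAs each of these libraries received. All cells were taken 48 h after transfection and grew in the same medium. The study asked which genes depend on ERRγ in SCLC. The 3 libraries rest on 1 cell line, and each condition had 1 library, so no test between conditions was possible.

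Neuroendocrine cells store peptides in dense-core granules, and many also carry small vesicles like those of nerve endings. Granins and processing enzymes fill the granule in the Golgi and sort its cargo. Release needs a SNARE bundle formed by a VAMP protein on the vesicle with a syntaxin and a SNAP protein on the plasma membrane. UNC13 proteins prime that bundle, complexins bind it, synaptotagmins sense calcium, and RAB3 proteins mark the vesicle for docking. Markers of this machinery, such as chromogranin A and synaptophysin, are used to diagnose SCLC.

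The libraries held 19861937, 19900580 and 20016780 estimated counts for siCont, siERRG2 and siERRG3. A log2 fold change here is the difference in TMM-scaled log2 CPM (counts scaled to library size) from siCont, with a prior count of 2. A member was called when it differed from siCont by at least 1.2-fold. It was called beyond counting error when the 95% exact binomial interval of the scaled count ratio also left out 1. These intervals cover counting error only and compare libraries, not conditions. Both comparisons share the siCont library, so their values are given side by side and are not independent. Counts are listed throughout in the order siCont, siERRG2, siERRG3. ESRRG had 806, 211 and 230 counts. Its scaled count ratios to siCont were 0.259 (0.221 to 0.302) and 0.281 (0.241 to 0.325). Of the neuroendocrine markers, NCAM1, CHGA and SYP were abundant, with 59.9, 80.9 and 109 FPKM in siCont. DDC was near 0, with 3, 8 and 16 counts, and GRP was not in the table. CHGA and SYP are themselves members. The epithelial markers EPCAM, KRT8, KRT18 and CDH1 summed to 7.03, 5.30 and 8.43 FPKM in siCont, siERRG2 and siERRG3, and none was at 0. The 4 fibroblast markers summed to 20.8, 28.0 and 24.3 FPKM, of which COL1A2 gave most. The 3 leukocyte markers in the table summed to 2.59, 2.60 and 2.91 FPKM. Of the endothelial markers, VWF was at 0 in siCont and PECAM1 at 0.250 FPKM, while CDH5 had 1456, 1623 and 585 counts. Whether other cell types had a part in any member's value was not tested.

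Of the 82 members, 70 reached 10 counts in at least 1 library, and 69 of these reached 10 in all 3. The remaining 12 stayed under 10 everywhere, 8 of them at 3 counts or fewer. The median member had 6.16 FPKM in siCont, against 4.39 over all genes of the table. Together the members took 0.633%, 0.612% and 0.589% of all counts. The sum was 125646, 121792 and 117889 counts.

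**Figure D1:**
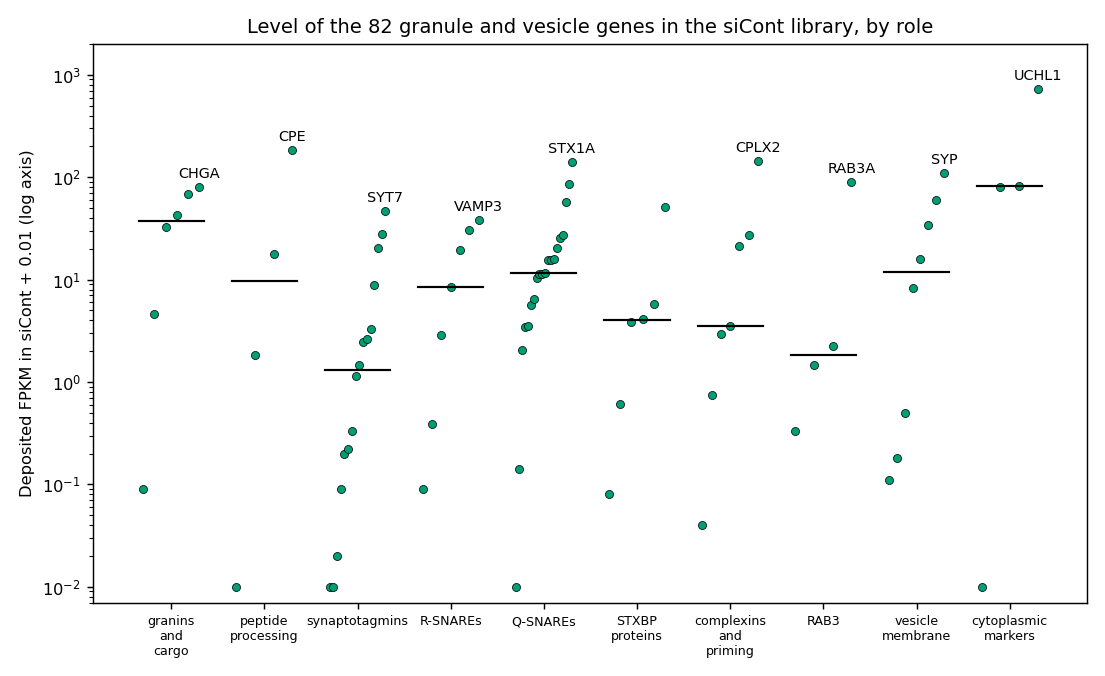
Deposited FPKM of the 82 members in siCont (vertical log axis, 0.01 added), one point per gene, grouped by role, with a black bar at each group's median. UCHL1 stands highest at 729 FPKM, and the lowest points of several groups sit at 0 FPKM.

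In siERRG2, 17 of the 70 members that passed (24.3%) were lower by at least 1.2-fold, beside 19.2% of all 14031 genes that passed. In the same library 12 members (17.1%) were higher, beside 16.4% of all genes. Beyond counting error, 14 members were lower (20%, against 12.8% of all genes) and 12 were higher (17.1%, against 10.2%). In siERRG3, 24 members were lower (34.3%, against 25.1%) and 7 were higher (10%, against 23.2%). Beyond counting error, 22 were lower (31.4%, against 19.9%) and 5 were higher (7.14%, against 17.1%). CPLX3 passed the filter only through siCont, where it is high, and so had to differ. Without it, 13 of 69 members (18.8%) were lower beyond counting error in siERRG2 and 21 (30.4%) in siERRG3. The members' calls therefore lay more on the lower side in siERRG3, while in siERRG2 both directions were close to equal in number. The members' median log2 fold change was -0.05 and -0.09, against -0.0004 and -0.003 over all genes. High-count genes have narrower intervals: 62 of the 82 members averaged at least 50 counts, as did 11369 of all 17448 genes. Among genes with that average, 21% of members were lower beyond counting error in siERRG2, against 13.9% of all genes, and 19.4% were higher, against 10.9%. In siERRG3, 33.9% of these members were lower, against 22.2%, and 8.06% were higher, against 19.1%.

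**Figure D2:**
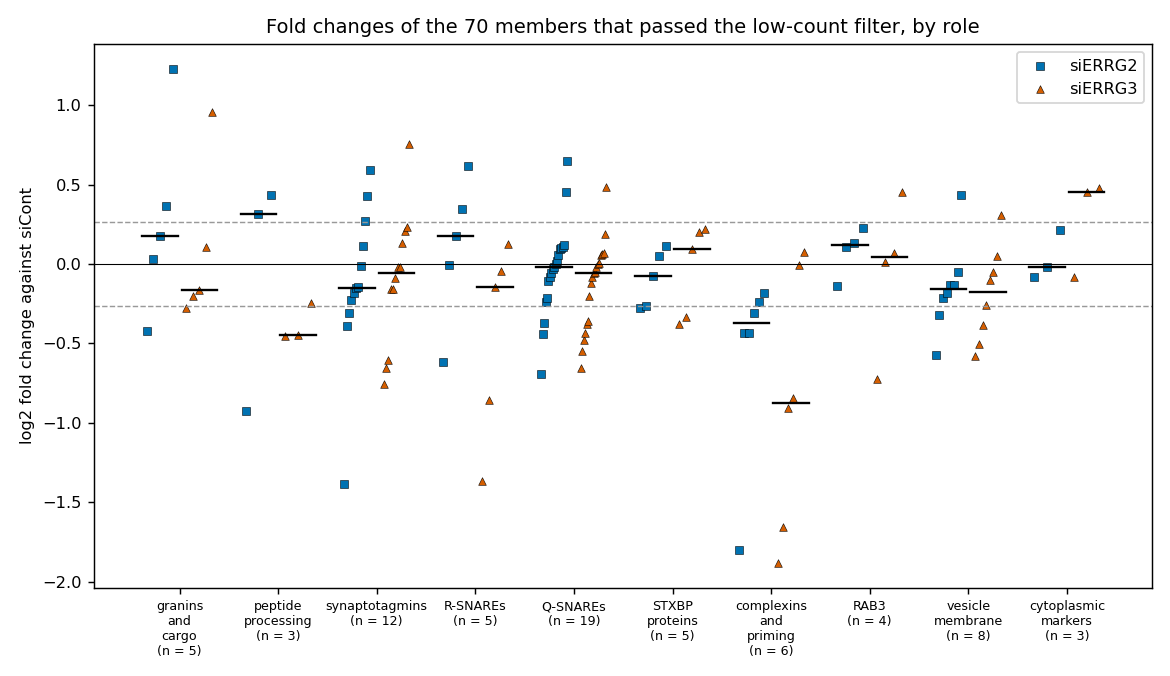
Log2 fold change against siCont (vertical axis) of the 70 members that passed the low-count filter, one point per gene and library, by role. Black bars are group medians and dashed lines mark 1.2-fold. The complexin and priming group lies lowest in siERRG3, with a median of -0.87.

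Among the granins, the acidic proteins that pack the granule core, the members moved apart. VGF, a neuropeptide precursor stored in granules (chr7:101162509-101169952, GRCh38.p14), had 1645, 2146 and 3253 counts. It was higher than siCont in both ESRRG libraries. Its log2 fold changes were 0.37 and 0.96, with count ratios of 1.29 (1.21 to 1.38) and 1.94 (1.83 to 2.06). SCG2, secretogranin II, which is cleaved to secretoneurin, had 234, 558 and 257 counts. Only the siERRG2 library stood above the others, at a ratio of 2.36 (2.02 to 2.76), whereas the siERRG3 ratio was 1.08 (0.901 to 1.29). SCG2 thus had the largest increase of any member meeting the 50-count minimum. CHGB, chromogranin B, had 3645, 2756 and 3312 counts. It was lower in siERRG2 (log2 fold change -0.42), and its difference in siERRG3 stayed under 1.2-fold (-0.16). CHGA, chromogranin A, had 3282, 3750 and 2751 counts. Its siERRG2 value was above siCont by less than 1.2-fold (log2 0.18), and its siERRG3 value was below it (-0.28), a call lost with FPKM (-0.21). SCG3, secretogranin III, which holds chromogranin A at the granule membrane, had 2816, 2910 and 2486 counts and passed 1.2-fold in neither library. SCG5, the chaperone of the PCSK2 convertase, was at 2, 0 and 2 counts, at or under the floor of 3 counts, so no fold is given.

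The promoters of VGF and CHGA are shown because both hold the full cAMP response element TGACGTCA, a site bound by CREB proteins, close upstream of the start. Each sequence is the 250 bases before the start in RefSeq (GRCh38.p14), 5′ to 3′ on the gene's strand, with the element in capitals. The VGF window is chr7:101165570-101165819 on the minus strand and the CHGA window is chr14:92922900-92923149 on the plus strand.
VGF: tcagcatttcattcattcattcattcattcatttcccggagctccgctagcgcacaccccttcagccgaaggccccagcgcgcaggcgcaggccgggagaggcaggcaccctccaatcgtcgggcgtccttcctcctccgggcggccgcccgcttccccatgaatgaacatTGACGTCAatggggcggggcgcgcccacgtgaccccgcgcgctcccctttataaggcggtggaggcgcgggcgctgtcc
CHGA: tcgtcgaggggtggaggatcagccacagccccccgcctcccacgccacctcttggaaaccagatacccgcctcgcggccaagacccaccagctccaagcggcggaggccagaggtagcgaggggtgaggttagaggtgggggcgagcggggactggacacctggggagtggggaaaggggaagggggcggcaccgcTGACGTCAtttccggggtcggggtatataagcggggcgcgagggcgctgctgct
The element lies 79 to 72 bases before the start in VGF and 54 to 47 in CHGA. Each start is the first listed in RefSeq and lies inside the gene's full extent there, not at its edge. A promoter was listed for 67 members, and 6 of them (8.96%) held the element between 250 bases before and 50 after the start: VGF, CHGA, PCSK1, SYN1, STX12 and STXBP3. The share was 1.98% over all 27305 promoters and 2.86% over the 13693 promoters of genes in the table. Members with the element did not move alike in siERRG3. The log2 fold change there was 0.96 for VGF, -0.28 for CHGA, -0.38 for STX12, -0.10 for SYN1 and 0.10 for STXBP3. In siERRG2 the values in the same order were 0.37, 0.18, 0.12, -0.13 and 0.05, and only VGF passed 1.2-fold. PCSK1 was at 0, 0 and 1 counts. TTCAGCACC, the left part of the RE1 element bound by REST, was found on either strand in 3 of the 67 promoters (4.48%, SCG3, SYN1 and UNC13A). The share was 0.403% over all promoters and 0.336% over those of genes in the table. REST itself, the repressor of neuronal genes, had 6, 10 and 2 counts. A match of letters is a description and shows no binding.

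Of the 4 enzymes that cut and finish peptides, the 2 best expressed went in opposite directions in the ESRRG libraries. CPE, carboxypeptidase E, which trims basic residues from peptide ends, had 9726, 12265 and 7256 counts. It was above siCont in siERRG2, at a ratio of 1.25 (1.21 to 1.28), and below it in siERRG3, at 0.734 (0.712 to 0.756). PAM, which amidates the peptide C-terminus, had 1348, 1844 and 1000 counts. Its pattern had the same order, with ratios of 1.35 (1.26 to 1.45) and 0.729 (0.672 to 0.792). PCSK2, prohormone convertase 2, had 176, 93 and 151 counts. It was lower in siERRG2, at 0.522 (0.402 to 0.675), while the siERRG3 interval of 0.674 to 1.05 held 1. PCSK1, the other granule convertase, was at 0, 0 and 1 counts, so H128 held transcripts of PCSK2 but hardly any of PCSK1 or of the PCSK2 chaperone SCG5.

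Synaptotagmins bind calcium or phospholipid and trigger or shape fusion. Of 16 in the table, 12 passed the filter. In siERRG2, 2 were lower and 3 higher beyond counting error (12.8% and 10.2% of all genes), and in siERRG3, 3 were lower and 1 higher (19.9% and 17.1%). SYT7, a slow high-affinity calcium sensor of granules (chr11:61513714-61588387), was the most abundant, with 4612, 1786 and 2779 counts. Both ESRRG libraries were well below siCont. The log2 fold changes were -1.38 and -0.75, and the ratios were 0.383 (0.362 to 0.404) and 0.593 (0.565 to 0.621). SYT11, which binds no calcium, had 2953, 4506 and 2688 counts and was higher in siERRG2 alone, at 1.51 (1.44 to 1.58). SYT1, the fast sensor of neurons, had 848, 927 and 566 counts and was lower in siERRG3, at 0.656 (0.589 to 0.731). SYT4, which is found on granules, had 1671, 2043 and 1675 counts, just past 1.2-fold in siERRG2 (log2 0.27). Among the synaptotagmins with fewer counts, SYT2, another fast sensor, was high in siERRG3, with 178, 162 and 307 counts and a ratio of 1.70 (1.41 to 2.05). SYT6 had 1.44, 1.17 and 0.930 FPKM and was lower in siERRG3, at 0.630 (0.471 to 0.838). SYT3 had 133, 102 and 127 counts, and SYT5 had 86, 118 and 96; their siERRG2 intervals, 0.580 to 0.989 and 1.02 to 1.81, barely left out 1. SYT14, SYT13, SYT15 and SYT17 did not pass 1.2-fold. SYT8, SYT9, SYT12 and SYT16 stayed under 10 counts in every library.

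Of the 67 member promoters searched, only that of SYT2 held the extended site TCAAGGTCA that estrogen-related receptors bind. The site is on the opposite strand, and the printed strand reads TGACCTTGA (capitals). The window is chr1:202710455-202710704 on the minus strand (GRCh38.p14), 5′ to 3′.
SYT2: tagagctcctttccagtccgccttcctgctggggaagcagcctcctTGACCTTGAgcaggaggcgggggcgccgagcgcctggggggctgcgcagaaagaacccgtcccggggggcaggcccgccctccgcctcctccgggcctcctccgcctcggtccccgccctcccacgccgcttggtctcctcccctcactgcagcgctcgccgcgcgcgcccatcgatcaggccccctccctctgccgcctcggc
The site lies 204 to 196 bases before the start. It occurred in 1 of 67 member promoters (1.49%), in 0.359% of all promoters and in 0.212% of those of genes in the table. Its shorter core AAGGTCA, which is part of the extended site, was found in 2 member promoters (2.99%, SYT2 and SYT6). The share was 3.97% over all promoters and 2.81% over those of genes in the table. The SYT2 gene shares 2107 bases with PPP1R12B, which had 1205, 1031 and 1279 counts. Whether the counting split reads between the 2 genes was not tested.

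The SNARE proteins themselves showed large differences that did not run together. VAMP2, the main vesicle SNARE of regulated release (chr17:8159147-8162948), had 1316, 869 and 737 counts. Both ESRRG libraries were lower, at ratios of 0.653 (0.599 to 0.712) and 0.551 (0.503 to 0.603). STX1A, its plasma membrane partner, had 5929, 3714 and 4702 counts and was also below siCont in both, at 0.619 (0.594 to 0.645) and 0.780 (0.750 to 0.810). SNAP25, the third partner of this bundle (chr20:10218830-10307418), had 3562, 5649 and 2297 counts. The siERRG2 library was above siCont (log2 0.65) and the siERRG3 library below it (-0.66). SNAP23, its widely expressed relative, had 833, 1153 and 626 counts, with ratios of 1.37 (1.25 to 1.5) and 0.739 (0.665 to 0.821). SNAP23 shares 4732 bases with LRRC57 on the other strand, which had 369, 379 and 584 counts.

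Other vesicle SNAREs differed from VAMP2. VAMP1, its close relative, had 122, 123 and 47 counts. The siERRG2 library equalled siCont and the siERRG3 library was far lower, at 0.379 (0.265 to 0.534). VAMP3, which serves constitutive traffic, had 1653, 2569 and 1630 counts and was higher in siERRG2 alone, at 1.54 (1.44 to 1.64). VAMP4, a SNARE of the trans-Golgi network, was also higher there (853, 1096 and 947 counts, ratio 1.27). VAMP7, of late endosomes, had 1040, 1189 and 957 counts and passed 1.2-fold in neither library. VAMP5 and VAMP8 were under 10 counts. VAMP1 shares 8441 bases with TAPBPL on the other strand, which had 12, 8 and 13 counts.

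Of 20 syntaxin and SNAP genes, 19 passed, of which 3 were lower and 2 higher beyond counting error in siERRG2 (12.8% and 10.2% of all genes), and 6 were lower and 1 higher in siERRG3 (19.9% and 17.1%). STX7, an endosomal syntaxin, had 821, 821 and 598 counts. It matched siCont in siERRG2 and was lower in siERRG3, at 0.716 (0.644 to 0.797). STX12, also endosomal, was lower there too (1248, 1373 and 976 counts, ratio 0.769). STX3, which serves apical and granule fusion, was the one syntaxin that was higher in siERRG3, with 192, 209 and 274 counts and a ratio of 1.40 (1.16 to 1.70). STX2 (700, 548 and 712 counts) and STX17 (435, 324 and 418) were lower in siERRG2 alone, at 0.774 and 0.736. STX6, a syntaxin of the trans-Golgi network, had 2594, 2435 and 2539 counts, within 1.2-fold of siCont in both. STX19 was at 0, 2 and 1 counts.

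**Figure D3:**
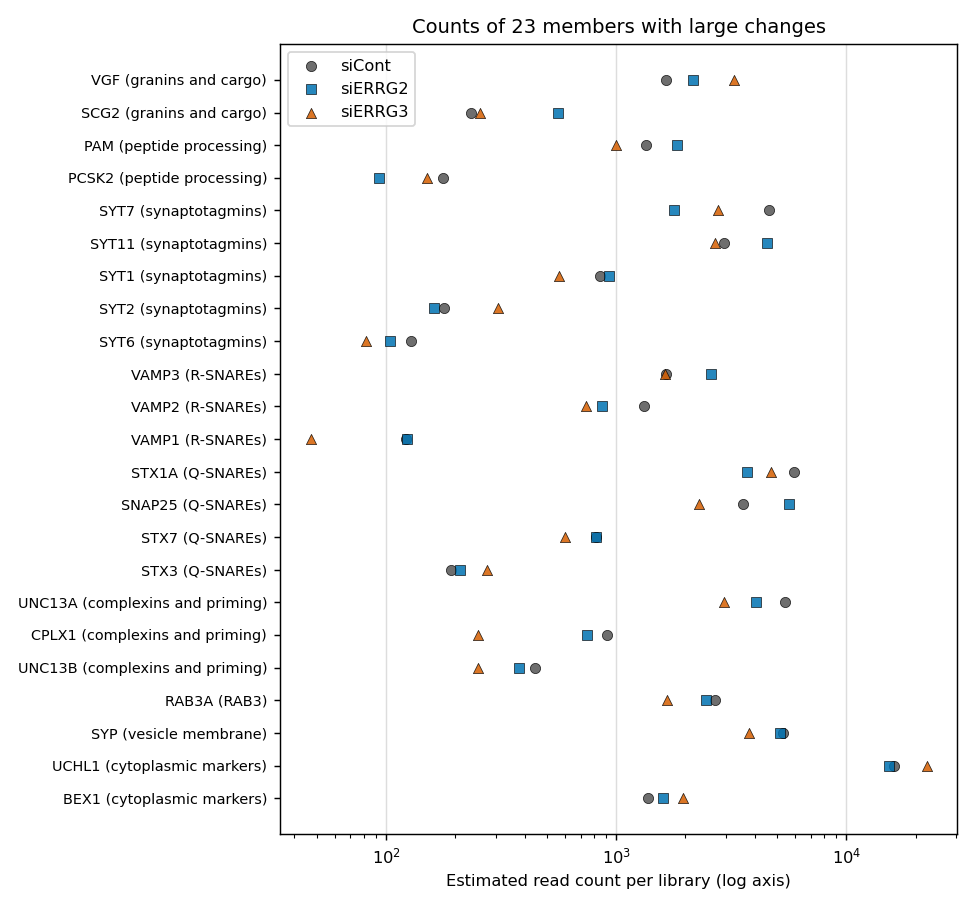
Estimated counts (horizontal log axis) of 23 of the 24 members with the largest changes among those averaging at least 50 counts, one row per gene with its role, one symbol per library. SNAP25 and PAM have siCont in the middle with the ESRRG libraries on either side, whereas SYT7, VAMP2, STX1A and UNC13A have siCont farthest right.

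Priming factors and complexins gave the lowest group median, -0.37 in siERRG2 and -0.87 in siERRG3 over 6 members that passed, with 4 of 6 lower beyond counting error in each library (12.8% and 19.9% of all genes). CPLX3, which passed only through siCont, was among these, with 29, 7 and 8 counts. Without it, 3 of 5 were lower in each library and the medians were -0.31 and -0.84. CPLX1, complexin 1, which clamps the assembled SNARE bundle (chr4:784957-826129), had 911, 743 and 250 counts. The siERRG3 library was far below the other pair. Its log2 fold changes were -0.31 and -1.88, with ratios of 0.806 (0.731 to 0.889) and 0.270 (0.234 to 0.311). CPLX2, the more abundant complexin, went another way, with 13727, 10258 and 14726 counts. It was lower in siERRG2, at 0.739 (0.720 to 0.758), and close to siCont in siERRG3, at 1.05 (1.03 to 1.08). UNC13A, the vesicle priming factor Munc13-1 (chr19:17601336-17688354), had 5392, 4029 and 2930 counts. Both ESRRG libraries were lower, at 0.739 (0.709 to 0.770) and 0.534 (0.511 to 0.559). UNC13B, its relative, had 442, 378 and 250 counts. Its siERRG2 value was below siCont by less than 1.2-fold, and its siERRG3 ratio was 0.556 (0.474 to 0.651). SNAP91, a clathrin adaptor of vesicle recovery, had 238, 212 and 241 counts and was called in neither library. CADPS, a priming factor of dense-core granules, was at 3, 1 and 2 counts.

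The syntaxin-binding proteins guide syntaxins into the SNARE bundle or hold them out of it. STXBP5, tomosyn, which competes for syntaxin, had 538, 589 and 637 counts, and STXBP3, of constitutive traffic, had 293, 307 and 319. Neither passed 1.2-fold. STXBP4 was lower in siERRG3 (228, 219 and 184 counts, ratio 0.794, interval 0.650 to 0.968). STXBP2 had 22, 18 and 26 counts, with intervals that held 1, and STXBP6 stayed under 10. RAB3A, the main GTPase of vesicle docking in neurons, had 2688, 2467 and 1654 counts and was lower in siERRG3, at 0.605 (0.569 to 0.644). The others of its family were far less abundant. RAB3C had 401, 476 and 429 counts, RAB3D had 124, 138 and 127, and RAB3B had 54, 59 and 76, and none was called beyond counting error.

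SYP, synaptophysin, a membrane protein of small vesicles, had 5279, 5169 and 3779 counts. It matched siCont in siERRG2 and was lower in siERRG3, at 0.704 (0.675 to 0.734), the only vesicle membrane member called lower beyond counting error there. SV2A, a glycoprotein found on vesicles and granules, had 4440, 3865 and 3775 counts, and SYN1, synapsin I, which tethers vesicles, had 2195, 2024 and 2085. Both were below siCont by less than 1.2-fold in each library. SYN2 was lower in siERRG2 (576, 467 and 565 counts, ratio 0.802), and SYPL1, a widely expressed synaptophysin-like protein, was higher there (722, 988 and 762 counts, ratio 1.35). SYN3, SV2B and SV2C had 75 or fewer counts and intervals that held 1. Of the cytoplasmic markers of neuroendocrine cells, none was called in siERRG2. UCHL1, a ubiquitin hydrolase, had 16031, 15340 and 22326 counts and was higher in siERRG3, at 1.37 (1.34 to 1.40). BEX1 had 1368, 1603 and 1941 counts and was higher there as well, at 1.40 (1.3 to 1.5). ENO2, neuron-specific enolase, was close to level at 3880, 3873 and 3727 counts. STMN2, a neuronal tubulin-binding protein, was at 0, 1 and 0.

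**Figure D4:**
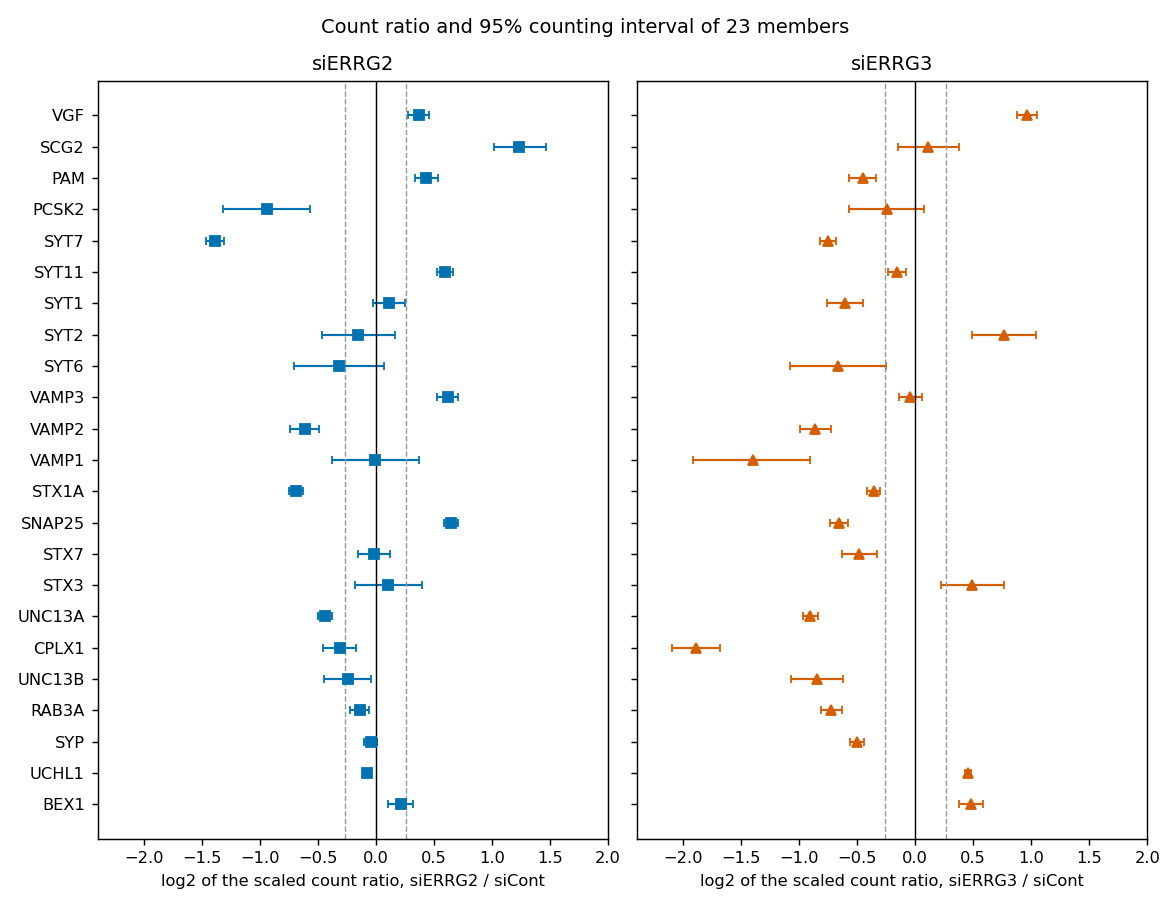
Log2 of the scaled count ratio to siCont (horizontal axis) for the same 23 members, siERRG2 at left and siERRG3 at right, with bars for the 95% exact binomial interval (counting error only) and dashed lines at 1.2-fold. SNAP25 and PAM lie right of 0 in siERRG2 and left of 0 in siERRG3.

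Genes of the same pathway outside the member list were counted in the same way. Of 92 listed genes, 81 were in the table and 64 passed the filter. In siERRG2, 15 were lower and 7 higher beyond counting error (12.8% and 10.2% of all genes), and in siERRG3, 18 were lower and 11 higher (19.9% and 17.1%). Active zone and tethering genes gave 6 lower and 1 higher of 20 in siERRG2, and 7 lower and 5 higher in siERRG3. RIMS3, a small active zone protein, had 3250, 1414 and 1989 counts, with ratios of 0.430 (0.404 to 0.458) and 0.602 (0.569 to 0.637). Like SYT7, it was below siCont in both libraries and lowest in siERRG2. PCLO, the scaffold piccolo, had 1347, 1177 and 835 counts and was lower in siERRG3, at 0.610 (0.558 to 0.665). SYTL5, a RAB27 effector, had few counts in siCont (49) and more in siERRG2 (177) and siERRG3 (84), with ratios of 3.57 (2.59 to 5.01) and 1.69 (1.17 to 2.45). NAPB, the beta form of the NSF attachment protein that takes SNARE bundles apart, had 1036, 799 and 502 counts and was lower in both, at 0.762 and 0.476. SNCB, beta-synuclein, had 719, 461 and 872 counts, low in siERRG2 and just under 1.2-fold above siCont in siERRG3 (log2 0.25). DNM1, the dynamin of vesicle recovery, had 2537, 1550 and 1723 counts and was lower in both, at 0.604 (0.567 to 0.644) and 0.668 (0.628 to 0.710).

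SYNGR1, synaptogyrin, had 1420, 1219 and 890 counts and SLC17A6, a vesicular glutamate transporter, had 1791, 2024 and 1155. Both were lower in siERRG3, at 0.616 and 0.634. Of the granule biogenesis genes, VPS41, a tethering subunit needed to form granules, had 886, 1029 and 545 counts, lower in siERRG3 at 0.605 (0.543 to 0.674). FURIN, a proprotein convertase of the Golgi, had 731, 315 and 756 counts, lower in siERRG2 alone at 0.426 (0.372 to 0.487). PTPRN2, a granule membrane phosphatase-like protein, had 66, 44 and 41 counts, with intervals of 0.440 to 0.980 and 0.403 to 0.916. Few peptide hormone precursors were measured: of 12 in the table, 5 passed. NTS, the neurotensin precursor, had 115, 192 and 132 counts and was higher in siERRG2, at 1.65 (1.3 to 2.1).

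In the deposited Gene Ontology annotation, 34 members were assigned to the synaptic vesicle, of 131 such genes in the table, 14 to the secretory granule, of 87, and 30 to the SNARE complex, of 50. Of the 32 synaptic vesicle members that passed, 5 were lower and 5 higher beyond counting error in siERRG2, and 10 were lower and 2 higher in siERRG3. The shares over all genes are 12.8% lower and 10.2% higher in siERRG2, and 19.9% and 17.1% in siERRG3, for these and the next counts. Of the 12 secretory granule members, 4 were lower and 3 higher in siERRG2, and 5 were lower and 1 higher in siERRG3. Of the 28 SNARE complex members, 8 were lower and 3 higher in siERRG2, and 10 were lower and 1 higher in siERRG3. Without CPLX3, 7 and 9 of 27 were lower. The table also lists published promoter motif sets. The set for REST sites held 7 members (CHGA, PCSK2, SNAP25, STMN2, SYT4, SYT6 and VGF) of 80 genes. Of the 6 that passed, 1 was lower and 3 higher in siERRG2, and 3 were lower and 1 higher in siERRG3. The smaller set for ERR sites held 4 (RAB3A, UCHL1, VAMP1 and VAMP2) of 241. Of those 4, 1 was lower and none higher in siERRG2, and 3 were lower and 1, UCHL1, higher in siERRG3. A larger ERR set held 8 members of 963 genes, of which 2 were lower and none higher in siERRG2, and 4 were lower and 1 higher in siERRG3. Neither ERR set held SYT2 or SYT6, and the REST set held none of SCG3, SYN1 and UNC13A.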

How the data were processed

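RNA-seq of 3 H128 libraries (siCont, siERRG2, siERRG3) was analysed, 1 per condition. The authors deposited an estimated count per gene and library, and a length-scaled expression value that behaves as FPKM, though the table names no unit. Their log2 ratios and p-values in the same table were not used. The study's methods give alignment to GRCh37/hg19 with BWA and Bowtie 2, and the submitters' processing notes name TopHat2, HTSeq, DESeq2, GRCh38, hg19 and hg38. Gene coordinates in the table are GRCh38; the counting program and its strand setting were not given in the sources used here. The kit was directional. The methods describe single-end and the labels paired-end sequencing.

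Estimated counts were rounded. Genes with at least 10 counts in 1 library were kept. Log2 fold changes used TMM factors and log2 CPM with a prior count of 2 (edgeR 4.0.16, R 4.3.3). Ratios have 95% Clopper-Pearson intervals (SciPy 1.17.1), which cover counting error only. With 1 library per condition no model test was run. The scaling and the intervals were tested on simulated counts that held counting error only. Such counts cannot show how the intervals hold when cultures differ. Alternatives were total counts, DESeq2 1.42.0 size factors, FPKM with a pseudocount of 0.1, a prior count of 0.5, other filters, 1.5-fold and 99% intervals.

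Members and lists were chosen with earlier results of these data known. Named members were the 3 with most siCont counts per role, and up to 24 (of 40) past 1.2-fold beyond counting error that averaged 50 counts, ranked by size; 12 (of 35) pathway genes by the same rule; and overlapping genes. Other genes were named to account for every group. Single values of 2 members are not reported here; the counts over members include them. Promoters (250 bases before to 50 after the start, first listed start) and gene positions came from RefSeq, GRCh38.p14. Of the 82 members, 67 had a promoter and 82 a position. In RefSeq, 15 members overlap another gene of the table. Strands of overlapping genes were those of the deposited table and were not checked against RefSeq. Figures used matplotlib 3.10.9.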

Additional observations from a re-analysis of the deposited data

Results flagged for a closer look

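In 4 members the ESRRG siRNA libraries lay on opposite sides of siCont, each by at least 1.2-fold beyond counting error. That is 5.71% of the 70 that passed, beside 2.92% of all genes (410 of 14031). SNAP25 was at log2 0.65 in siERRG2 and at -0.66 in siERRG3. PAM had 0.43 and -0.45, SNAP23 had 0.45 and -0.44, and CPE had 0.32 and -0.45. With 1 library per condition the difference between the siRNA libraries was not tested. The siERRG3 to siERRG2 count ratios were 0.404 (0.385 to 0.425) for SNAP25, 0.539 (0.499 to 0.583) for PAM, 0.540 (0.489 to 0.596) for SNAP23 and 0.588 (0.572 to 0.606) for CPE, with intervals for counting error only. ESRRG itself had 211 counts in siERRG2 and 230 in siERRG3, against 806 in siCont.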

How the results depend on the processing

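Under total counts, DESeq2 size factors, FPKM, a prior count of 0.5 and the 50-count filter, every count of called members stayed within 1.5 times its reported value. A 1.5-fold threshold left 5 members lower and 4 higher in siERRG2, and 11 lower and 2 higher in siERRG3, the same with and without the interval. The shares over all genes were then 6.97% lower and 4.29% higher, and 9.95% and 8.47%, without the interval. With no low-count filter, 13 of 82 members were higher in siERRG3, not 7 (15.9%, against 26.1% of all genes), of which 6 beyond counting error. Of 424 recomputed log2 fold changes of 53 named genes, 3 moved out of their interval, all with FPKM: CHGA in siERRG2 (0.26), SYNGR1 in siERRG2 (0.04, against -0.24, which was not called) and PTPRN2 in siERRG3 (-1.31, against -0.68). The cause was not tested. CHGA in siERRG3 fell under 1.2-fold with FPKM (-0.21). No called value changed sign. No library could be left out and no paired analysis was possible because each condition has 1 library. Intervals widen as counts fall (RAB3D, at 124 to 138 counts, reached 0.857 to 1.41 in siERRG2), and differences between cultures were not measured.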
